A study of Mus musculus with 18 samples.

Results

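The iron recycling and heme breakdown genes of the spleen are described here as 10 transcripts, taken from the table by name: Slc48a1, Hmox1, Blvra, Blvrb, Slc11a1, Slc40a1, Hamp, Tfrc, Fth1 and Ftl1. All 10 were found among the 19326 lines of the deposited expression table, and all 10 reached 1 RPKM in 3 libraries or more, as did 12905 genes in all. RPKM counts reads scaled by transcript length and by the mapped reads of the library. In these spleens the members fell into sets that followed markers of different cell types. Slc48a1, Blvrb, Tfrc and Fth1 rose and fell with the erythroid gene Alas2, whereas Slc11a1 and Slc40a1 rose and fell with markers of red pulp macrophages. The macrophage relation was added after that to Alas2 had been seen. Neither Slc11a1 nor Slc40a1 passed its test once differences between groups were removed. Alas2 and the macrophage markers were themselves opposed (r = -0.59). None of the 10 passed the test between any pair of the compared groups after adjustment over all genes. Few genes of any kind did, at most 0.163% (21 of 12905) in a comparison.

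The spleen clears aged red blood cells, and its red pulp macrophages take them up and break hemoglobin down. Heme leaves the phagosome through the transporter Slc48a1 (HRG1) and is opened by the heme oxygenase Hmox1, and the resulting biliverdin is reduced by Blvra. Blvrb encodes a further biliverdin reductase. The freed iron is either stored in ferritin, built of Fth1 and Ftl1 chains, or sent back to the blood through the exporter Slc40a1 (ferroportin), which the liver hormone hepcidin (Hamp) removes from the cell surface. The mouse spleen also makes red blood cells, and erythroid precursors take up transferrin-bound iron through Tfrc and build heme from it, with Alas2 catalysing the first step.

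All 10 are protein-coding genes, and their positions are those of GENCODE on GRCm38, matched by symbol. The heme genes were Slc48a1 at chr15:97778520-97792692, Hmox1 at chr8:75093621-75100589, Blvra at chr2:127070665-127097084, Blvrb at chr7:27447978-27466144. The genes of phagosomal iron, export and its hormone were Slc11a1 at chr1:74375195-74386062, Slc40a1 at chr1:45908068-45926523, Hamp at chr7:30942368-30944032. Those of uptake and storage were Tfrc at chr16:32608920-32632794, Fth1 at chr19:9980598-9985098 and Ftl1 at chr7:45457944-45459884.

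Several members carry an iron-responsive element, a hairpin to which the iron regulatory proteins bind when a cell is short of iron. Before the coding region it blocks translation, and after the coding region it protects the transcript from decay. The pattern searched here was a C, 5 bases, the loop CAGTGN and 5 bases able to pair with those before the loop, on the sense strand of the GENCODE transcripts of GRCm38. It was found in the 5′ untranslated region of 3 members (Fth1, Ftl1 and Slc40a1) and in the 3′ untranslated region of 1 (Tfrc), as well as in the 5′ region of Alas2. Over all genes with such regions it was present in 0.148% (31 of 20899) at the 5′ end and in 0.595% (129 of 21685) at the 3′ end. These windows are shown because such elements are known to act after transcription, and for the 5′ elements RNA levels do not measure that step. Capitals mark the loop. The window of Fth1 lies at chr19:9982732-9982761 (plus strand), that of Ftl1 at chr7:45459778-45459807 (minus strand), that of Slc40a1 at chr1:45925464-45925493 (minus strand) and the first of 4 in Tfrc at chr16:32631219-32631248 (plus strand). That of Alas2 joins 2 exons on chromosome X (plus strand, first base at 150547458 and last at 150552150).
Fth1: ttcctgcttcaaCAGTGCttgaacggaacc
Ftl1: gtcttgcttcaaCAGTGTttgaacggaaca
Slc40a1: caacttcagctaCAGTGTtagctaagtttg
Alas2: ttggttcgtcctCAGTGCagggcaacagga
Tfrc: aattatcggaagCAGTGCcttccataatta

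The spleens came from male ICR mice aged 10 weeks, in 6 groups of 3 libraries. Con animals were controls kept on a regular diet and given saline. A10 animals were given alginate oligosaccharide (AOS, a short sugar from brown algae) at 10 mg/kg, and STZ animals a single dose of streptozotocin, a toxin of the insulin-producing cells used to model type 1 diabetes. In STZ-A10 the toxin was combined with AOS. The remaining groups were also made diabetic with STZ and were then fed pooled small intestinal contents, from donors given AOS at 10 mg/kg for A10-FMT and from control donors for Con-FMT. The study's methods describe 4 of the groups and do not describe A10 and STZ-A10, which are known from the labels alone. The libraries of a group are listed as separate samples. Whether each is from a separate animal is not stated, and the p-values measure only the spread between these libraries. The comparisons address whether diabetes, AOS or the transplants altered iron handling in the spleen, where the study also stained ferric iron.

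The labelled tissue matched its markers, since the 6 B cell, 5 T cell, 15 red pulp macrophage and 17 erythroid genes found in the table were at 1 RPKM or more in every library, except Cd163, whose lowest value was 0.86. Of the listed genes, 1 of T cells and 1 of erythroid cells had no line under its symbol. Some libraries stood apart. The summed level of 12 neutrophil and progenitor genes was 15340 RPKM in Con library 1 and 4187 in Con library 2, against 430 to 1740 in the 16 others. That of 12 exocrine pancreas genes was 20225 in A10-FMT library 2 against 23.3 to 9225 elsewhere. The pancreas sum also differed between groups. It was 5811 to 9225 in STZ-A10, 1276 to 5682 in STZ and 1813 to 2980 in Con-FMT, against 23.3 to 1648 in Con and 43.1 to 622 in A10. Its part in the comparisons was not tested. That of 6 B cell genes was 513 in A10-FMT library 3 against 1255 to 2383 elsewhere. Testis germ cell genes summed to 274 in Con library 2 against at most 32.8 elsewhere. Globin transcripts took an estimated 4.2% to 20.7% of the reads of a library. Read counts are not among the deposited values, and the depth behind each of them is unknown.

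Heme handling began with Slc48a1, the transporter that brings heme out of the phagosome. Slc48a1 stood at 83.7, 69.00 and 67.5 RPKM in Con libraries 1 to 3, at 65.2, 65.7 and 54.5 in A10 and at 57.9, 77.2 and 91.6 in STZ. It was at 63.7, 71.1 and 90.5 in STZ-A10, at 94.96, 75.05 and 110.0 with AOS donors (A10-FMT) and at 78.5, 75.2 and 66.9 with control donors (Con-FMT). The A10 libraries were below all 3 Con libraries, and the highest value was that of A10-FMT library 3. Over the 18 libraries the level of Slc48a1 varied 2.02-fold, with a median of 73.1 RPKM.

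Hmox1, which cleaves heme and releases its iron, varied 2.82-fold around a median of 232.6 RPKM. Hmox1 stood at 213, 169 and 263 RPKM in Con libraries 1 to 3, at 216, 220.0 and 168 in A10 and at 265, 229 and 254 in STZ. Values were 335, 281 and 253 in STZ-A10, 196, 236 and 119 in A10-FMT and 216, 246 and 268 in Con-FMT. The highest value was in STZ-A10 library 1 and the lowest in A10-FMT library 3, which was also the library with the most Alas2. Each neighbouring pair of groups in the order of Hmox1 means overlapped, but groups farther apart did not all do so. The STZ and STZ-A10 libraries were all above the A10 libraries, and those of STZ-A10 were also above all A10-FMT libraries. The share over all genes was not computed for these pairs.

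The biliverdin reductases differed in level and in spread. Blvra was low and even, from 22.8 to 35.5 RPKM with a median of 26.7 and no group clear of its neighbours. Blvrb, which in red cells also acts as flavin reductase, had a median of 443.8 RPKM. Blvrb stood at 537, 409 and 311 RPKM in Con libraries 1 to 3, at 337, 379 and 286 in A10 and at 333, 582 and 589 in STZ. The STZ-A10 libraries had 238, 443 and 445, the A10-FMT libraries 674, 499 and 985 and the Con-FMT libraries 459, 441 and 446. All 3 A10-FMT libraries were above all 3 Con-FMT libraries, and the Con-FMT libraries differed from each other by little. The range of Blvrb was 4.14-fold, against 1.56-fold for Blvra.

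Slc11a1 (NRAMP1) moves iron out of the phagosome of macrophages. Slc11a1 stood at 12.9, 11.2 and 16.2 RPKM in Con libraries 1 to 3, at 13.6, 14.9 and 17.2 in A10 and at 17.3, 19.2 and 16.6 in STZ. It was at 25.1, 14.6 and 21.9 in STZ-A10, at 14.2, 11.6 and 13.5 with AOS donors (A10-FMT) and at 14.4, 13.9 and 18.9 with control donors (Con-FMT). The STZ libraries were above all 3 Con libraries and above all 3 A10-FMT libraries, while STZ-A10 spanned the widest range.

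Slc40a1, the iron exporter, had a median of 62.1 RPKM and a narrow range of 1.65-fold. Slc40a1 stood at 59.4, 59.6 and 81.2 RPKM in Con libraries 1 to 3, at 54.3, 64.7 and 55.7 in A10 and at 87.3, 74.8 and 78.5 in STZ. Values were 86.8, 67.04 and 73.4 in STZ-A10, 52.8, 52.9 and 53.6 in A10-FMT and 52.97, 57.9 and 72.3 in Con-FMT. The 3 A10-FMT libraries lay within 1 RPKM of each other. They were below every library of the Con, A10, STZ and STZ-A10 groups and overlapped only with Con-FMT. Against STZ the same held for 12.1% of all genes, and for Con, A10 and STZ-A10 that share was not computed. The STZ libraries were also above all Con-FMT libraries, but they overlapped with Con, whose library 3 was high.

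Hamp, which encodes hepcidin and is made mainly in the liver, was near the bottom of the scale and was listed at 0 in 4 libraries. Hamp stood at 0, 8.65 and 5.79 RPKM in Con libraries 1 to 3, at 2.93, 1.75 and 0.29 in A10 and at 0, 0.28 and 0 in STZ. The STZ-A10 libraries had 1.71, 0.58 and 2.49, the A10-FMT libraries 3.55, 3.28 and 0.26 and the Con-FMT libraries 1.35, 1.41 and 0. The 2 highest values were those of Con libraries 2 and 3, which were also high for liver transcripts. The summed level of 15 liver genes was 350.8 and 313.8 RPKM in these 2 libraries and 26.1 in Con library 1, where Hamp was at 0. In STZ the liver sum was 5.79 to 8.20, and 1 of the 15 genes, Ttr, was at 0 in every STZ library. The liver sum was highest in A10-FMT library 3, at 414.8, where Hamp was only at 0.26. In STZ-A10 library 3 it was 6.77, with Hamp at 2.49. The part of the liver genes in the Hamp values was not tested. The near-identical gene Hamp2 lay between 0 and 3.04 RPKM, and reads shared between the 2 genes could have been split.

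Tfrc, the receptor that brings transferrin iron into the cell, varied more than any other member that was above 0 in every library, by 8.38-fold. Tfrc stood at 180.0, 119.9 and 104 RPKM in Con libraries 1 to 3, at 78.3, 93.5 and 72.6 in A10 and at 79.6, 236 and 194 in STZ. It was at 59.3, 138 and 153 in STZ-A10, at 211, 140.3 and 497 with AOS donors (A10-FMT) and at 112, 121 and 134 with control donors (Con-FMT). The A10 libraries were all below the Con libraries. The A10-FMT libraries were all above the Con-FMT libraries, and A10-FMT library 3 stood above the next library, STZ library 2, by a wide margin.

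Ferritin transcripts were the most abundant members, and their chains behaved differently. Fth1, the heavy chain that oxidises iron, varied 1.65-fold around a median of 1734 RPKM. Fth1 stood at 1779, 1616 and 1579.6 RPKM in Con libraries 1 to 3, at 1533, 1643 and 1528 in A10 and at 1506, 2061 and 1916 in STZ. Values were 1397, 1557 and 1792 in STZ-A10, 2048, 1709 and 2312 in A10-FMT and 1828, 1765 and 1759 in Con-FMT. Each group overlapped with its neighbour in the order of means, and the highest value was again that of A10-FMT library 3. Farther apart in that order, the A10-FMT and Con-FMT libraries were all above the A10 libraries. The share over all genes was not computed for these pairs. Ftl1, the light chain, was the most even member. It lay between 2192 and 2749 RPKM, a range of 1.25-fold, with group means from 2366 ± 118 (SD, n = 3) in A10 to 2608 ± 131 (SD, n = 3) in STZ.

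**Figure D1:**
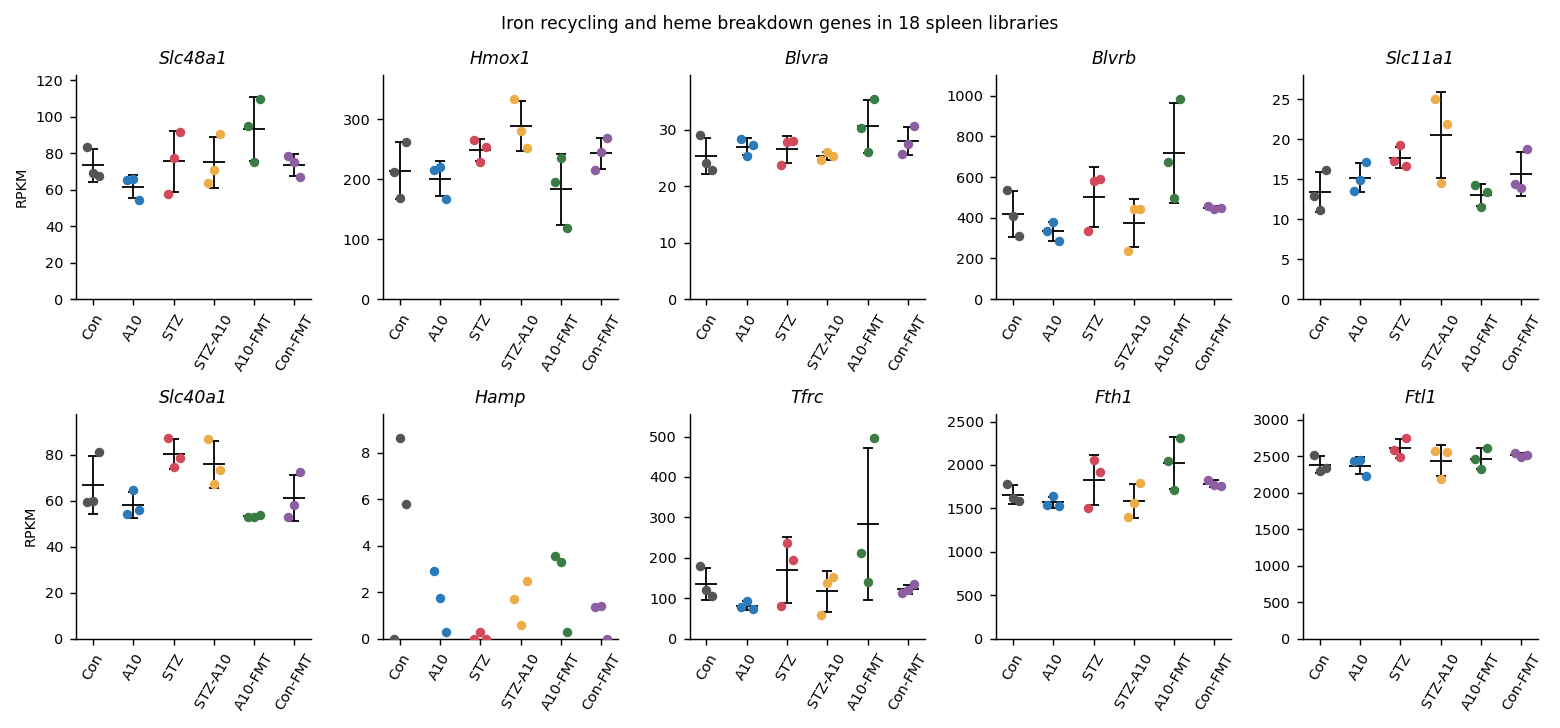
RPKM (vertical axis, from 0) of the 10 members in each of 18 spleen libraries, by group (horizontal axis). Points are libraries, and bars are the mean ± SD of 3 libraries, left out for Hamp, which is listed at 0 in 4 libraries. Tfrc and Blvrb spread widely within groups, reaching 497 and 985 RPKM in 1 A10-FMT library, whereas Ftl1 stayed between 2192 and 2749.

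When the groups were ordered by their means, the gap between neighbours was within the larger SD of the pair in 42 of 45 cases over the 9 members other than Hamp. The 3 wider gaps were Fth1 between Con-FMT and Con, and Slc48a1 between A10-FMT and STZ and between Con and A10. In 2 of the 45 cases the libraries did not overlap, Slc40a1 in A10 against A10-FMT and Slc48a1 in Con against A10. The share of such cases over all genes was not computed. Neighbours in an order of means are close by construction, so these counts do not describe groups farther apart. Slc40a1, for example, was at 74.8 to 87.3 RPKM in STZ and at 52.8 to 53.6 in A10-FMT.

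Erythroid load was read from Alas2, the erythroid enzyme of heme synthesis, and from the alpha globin gene Hba-a1. Alas2 stood at 862, 596 and 468 RPKM in Con, at 466, 519 and 330.1 in A10 and at 217, 774 and 896 in STZ. It stood at 282, 644 and 856 in STZ-A10, at 917, 674 and 1272 in A10-FMT and at 672, 682 and 442 in Con-FMT. STZ library 1 was the lowest of the 18 libraries and A10-FMT library 3 the highest, and the A10-FMT libraries were all above the A10 libraries. Hba-a1, at 46033 to 215329 RPKM, followed Alas2 (Pearson r = 0.98 over 18 libraries that share their totals). Neither gene passed the threshold in any comparison. In whole spleen, fewer cells of a type and less RNA per cell cannot be told apart.

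Over the 18 libraries 5 members rose with Alas2 in limma (Benjamini-Hochberg adjusted p under 0.05 over all genes), and none fell. The background was uneven, since 9.56% of all genes rose with Alas2 and 48.1% fell. Slc48a1 rose by 0.36 ± 0.04 (SE) on the log2 scale for each doubling of Alas2 (limma, adjusted p = 4.2e-06), with r = 0.92 and rho = 0.97. Blvrb rose by 0.65 ± 0.09 (adjusted p = 1.8e-05), with r = 0.87 and rho = 0.88. Tfrc had the steepest slope, 0.96 ± 0.13 (limma, adjusted p = 2.1e-05), with r = 0.87 and rho = 0.90, a change nearly in proportion to Alas2. Fth1 rose by 0.24 ± 0.04 (limma, adjusted p = 0.00024), with r = 0.84 and rho = 0.89. The two-sided permutation p of r and of rho was 1e-05 for Slc48a1, Blvrb and Tfrc, the smallest that 100000 permutations can give, and it was 4e-05 (r) and 1e-05 (rho) for Fth1.

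Blvra was related more weakly. It rose by 0.13 ± 0.05 per doubling (limma, adjusted p = 0.030), with r = 0.56 (permutation p = 0.014) and rho = 0.53 (permutation p = 0.026). With a coefficient per group, which leaves only differences within groups, 4 members still rose with Alas2 while Blvra did not pass (limma, adjusted p = 0.12), against 7.76% of all genes that rose and 32.5% that fell. The correlation within groups was 0.92 for Slc48a1, 0.91 for Blvrb, 0.89 for Fth1 and 0.86 for Tfrc. STZ library 1 and STZ-A10 library 1 were farthest from the median of Alas2, and without them r was 0.97, 0.91, 0.82 and 0.88 for the same genes and 0.45 for Blvra. Without A10-FMT library 3 Blvra did not pass (slope 0.08, limma, adjusted p = 0.16), whereas Tfrc (0.79, adjusted p = 6.4e-05) and Blvrb (0.56, adjusted p = 9.6e-05) did.

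The other 5 members did not pass. Slc40a1 had a slope of -0.18 ± 0.08 (limma, adjusted p = 0.067), with r = -0.46 (permutation p = 0.054) and rho = -0.40 (permutation p = 0.099), and without the 2 farthest libraries r was -0.08. With Hba-a1 in place of Alas2 Slc40a1 passed as falling (slope -0.22 ± 0.08, limma, adjusted p = 0.035), as did 44.4% of all genes. With a coefficient per group it did not pass there (limma, adjusted p = 0.069). Hmox1 had r = -0.45 (permutation p = 0.061) and rho = -0.40 (permutation p = 0.098), and without the 2 farthest libraries r was -0.25. Slc11a1 had r = -0.39 (permutation p = 0.12) and rho = -0.37 (permutation p = 0.14), and r was -0.12 without those libraries. Ftl1 had r = 0.20 (permutation p = 0.43) and rho = 0.25 (permutation p = 0.32), and r was 0.60 without them. Hamp had r = 0.02 (permutation p = 0.92) and rho = -0.05 (permutation p = 0.85), and r was -0.17 without them.

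RPKM shares 1 total among all genes of a library, so a library rich in globin lowers every other value. When the values were rescaled without the globin genes, the split over all genes moved to 1755 that rose with Alas2 and 3721 that fell, of 12870, from 1234 and 6209 of 12904 as deposited. On that scale 6 members rose with Alas2, the 5 above and Ftl1 (slope 0.10 ± 0.04, limma, adjusted p = 0.030), and none fell. With a coefficient per group on that scale Blvra also passed (slope 0.18 ± 0.05, limma, adjusted p = 0.032), and over all genes 1256 rose and 954 fell, the opposite lean to that of the values as deposited. Without that coefficient the slope of Slc40a1 shrank to -0.09 and that of Hmox1 to -0.14.

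**Figure D2:**
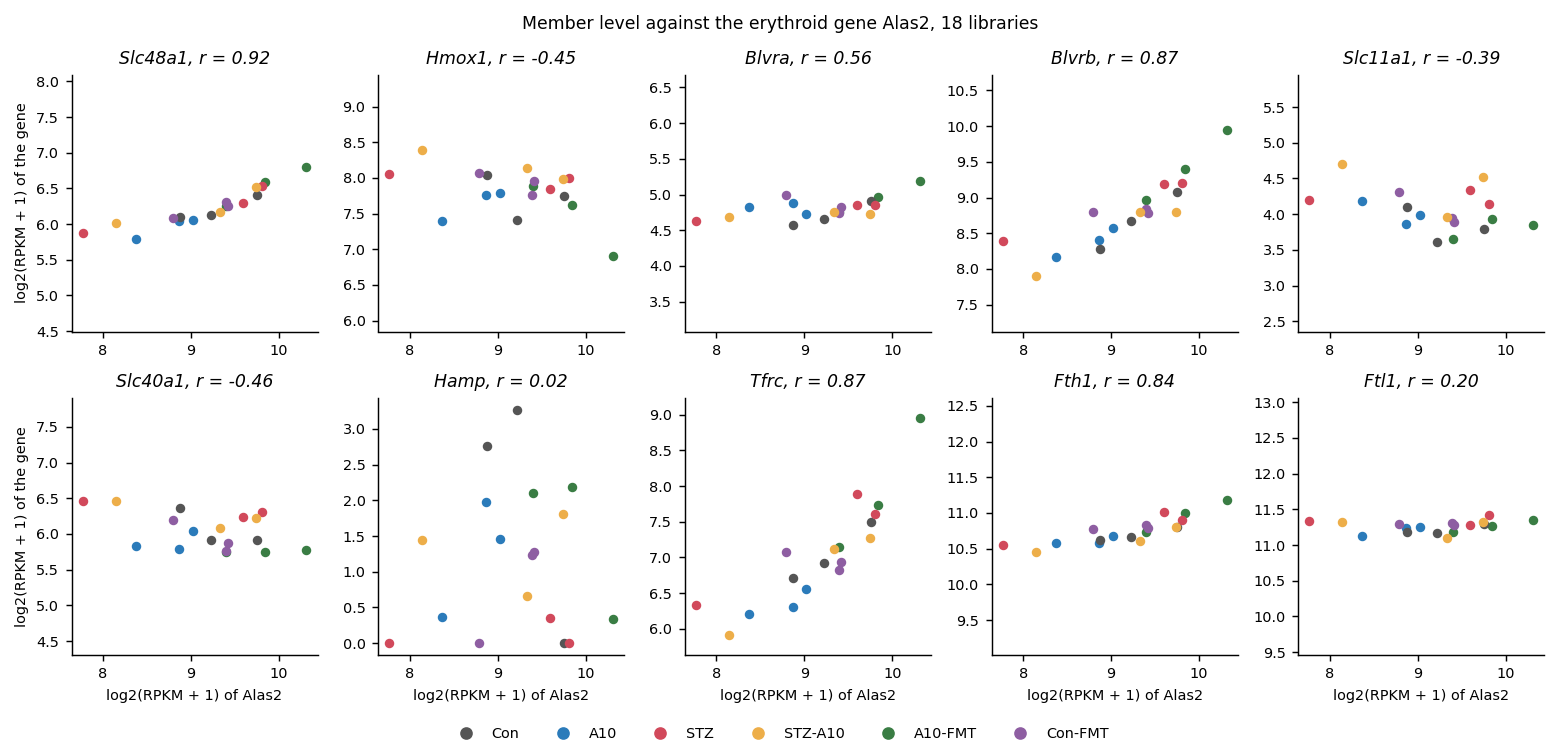
Level of each member (vertical axis, log2(RPKM + 1)) against that of Alas2 (horizontal axis, same scale) in 18 libraries coloured by group, with Pearson r above each panel. Every vertical axis spans the same number of log2 units, so steepness can be compared, and Tfrc (r = 0.87) and Blvrb (0.87) climb across the panel while Ftl1 (0.20) stays flat.

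Ratios of 2 members within a library do not depend on the library's total. They were computed for 4 pairs, chosen after the relations above had been seen, each with a member that rose with Alas2 over one that had a smaller or negative slope. Their correlations with Alas2, as differences of log2(RPKM + 1) over 18 libraries, restate those slopes and are given as a description with no test. The ratio of Fth1 to Ftl1 went from 0.544 in STZ-A10 library 1 to 0.888 in A10-FMT library 3 (r = 0.83, rho = 0.78), and the heavy chain was below the light chain in every library. The ratio of Blvrb to Blvra went from 9.67 to 27.8 (r = 0.87, rho = 0.92). That of Tfrc to Slc40a1, the import receptor over the exporter, went from 0.683 to 9.26 (r = 0.90, rho = 0.93). In whole spleen this ratio can compare RNA of different cell types and does not measure iron balance.

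The ratio of Slc48a1 to Hmox1 went from 0.190 to 0.926 (r = 0.78, rho = 0.79). All 4 ratios were lowest in STZ-A10 library 1 and highest in A10-FMT library 3. The latter had the most Alas2, but the least was in STZ library 1 (217 RPKM, against 282 in STZ-A10 library 1). The sum of macrophage markers described below was highest in STZ-A10 library 1 (1226) and lowest in A10-FMT library 3 (586). Its part in the ratios was not tested. Within groups r was 0.80 for Fth1 to Ftl1, 0.92 for Blvrb to Blvra, 0.90 for Tfrc to Slc40a1 and 0.76 for Slc48a1 to Hmox1, and without the 2 farthest libraries it was 0.71, 0.94, 0.87 and 0.71.

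**Figure D3:**
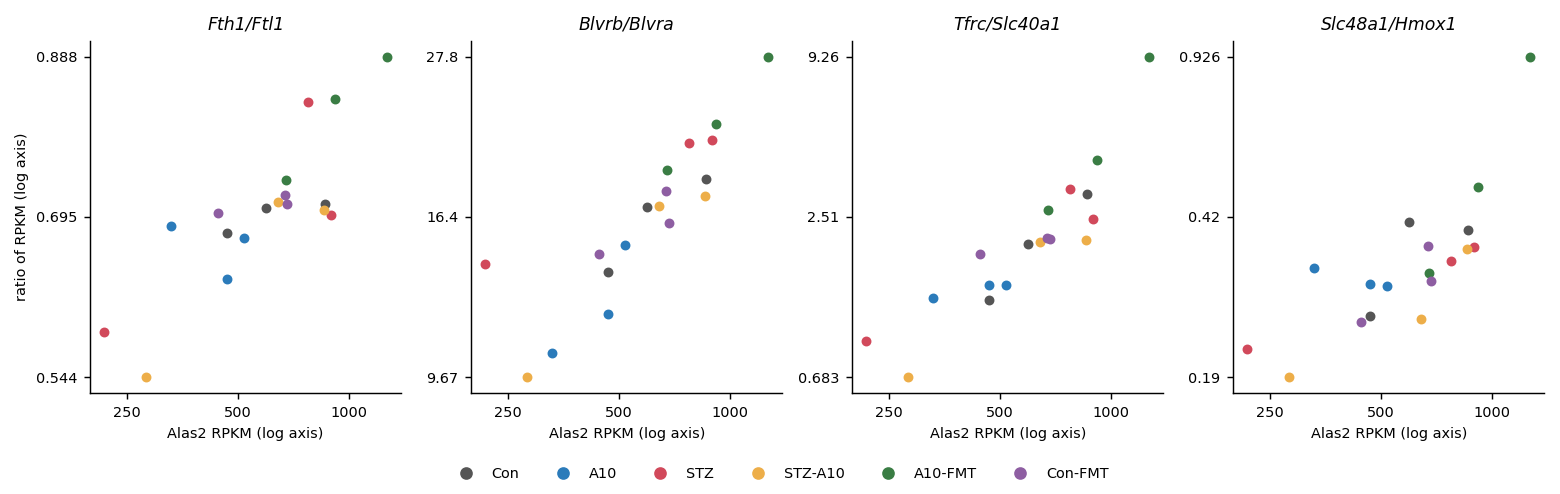
Ratio of the RPKM of 2 members (vertical axis, log scale) against Alas2 RPKM (horizontal axis, log scale) in 18 libraries coloured by group. Each ratio climbs with Alas2, with Tfrc/Slc40a1 spanning 0.683 to 9.26 and Fth1/Ftl1 only 0.544 to 0.888.

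Red pulp macrophages are the cells that recycle iron from red cells, and they were followed by the summed RPKM of 15 marker genes. The sum was unweighted, so the most abundant markers counted most. These were C1qa, C1qc, C1qb and Vcam1, with medians of 122, 120, 116 and 95.5 RPKM, against 47.5 for Spic and 11.7 for Adgre1. Con libraries had sums of 593 to 729.7, A10 libraries 704 to 840.4 and STZ libraries 807 to 903. STZ-A10 reached from 709.5 to 1226, A10-FMT from 586 to 643 and Con-FMT from 629 to 819.9. The STZ libraries were thus all above Con and above A10-FMT, and the sum ran against Alas2 over the 18 libraries (r = -0.59). The relation of the members to this sum was added after the relation to Alas2 had been seen.

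In limma 2 members rose with the macrophage sum after adjustment over all genes, and none fell, against 7.35% of all genes that rose and 1.62% that fell. Slc11a1 rose by 0.94 ± 0.12 per doubling (limma, adjusted p = 0.00020), with r = 0.91 and rho = 0.92 (permutation p = 1e-05 for both). Slc40a1 rose by 0.68 ± 0.16 (limma, adjusted p = 0.017), with r = 0.73 (permutation p = 0.00046) and rho = 0.71 (permutation p = 0.0014). Hmox1 did not pass (0.72 ± 0.23, limma, adjusted p = 0.054), with r = 0.59 (permutation p = 0.011) and rho = 0.57 (permutation p = 0.015). Without the 2 libraries farthest from the median of the sum, STZ-A10 library 1 and STZ library 2, r was 0.84 for Slc11a1, 0.65 for Slc40a1 and 0.48 for Hmox1, and within groups it was 0.84, 0.72 and 0.34.

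With a coefficient per group no member passed, and neither did any other gene (0% rose and 0% fell). The slope of Slc11a1 was then 0.96 ± 0.20 (limma, adjusted p = 0.23) and that of Slc40a1 0.62 ± 0.19 (adjusted p = 0.56). After rescaling without globin Slc11a1 still passed (limma, adjusted p = 0.00035) and Slc40a1 did not (adjusted p = 0.061). The lowest r with the macrophage sum was that of Blvrb, at -0.58 (permutation p = 0.011, rho = -0.48 with permutation p = 0.046), which did not pass in limma (adjusted p = 0.055). Tfrc had r = -0.50 (permutation p = 0.037) and rho = -0.40 (permutation p = 0.10), with a limma adjusted p of 0.096. In all, 30 relations of members were computed, 10 each to Alas2, Hba-a1 and the macrophage sum.

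**Figure D4:**
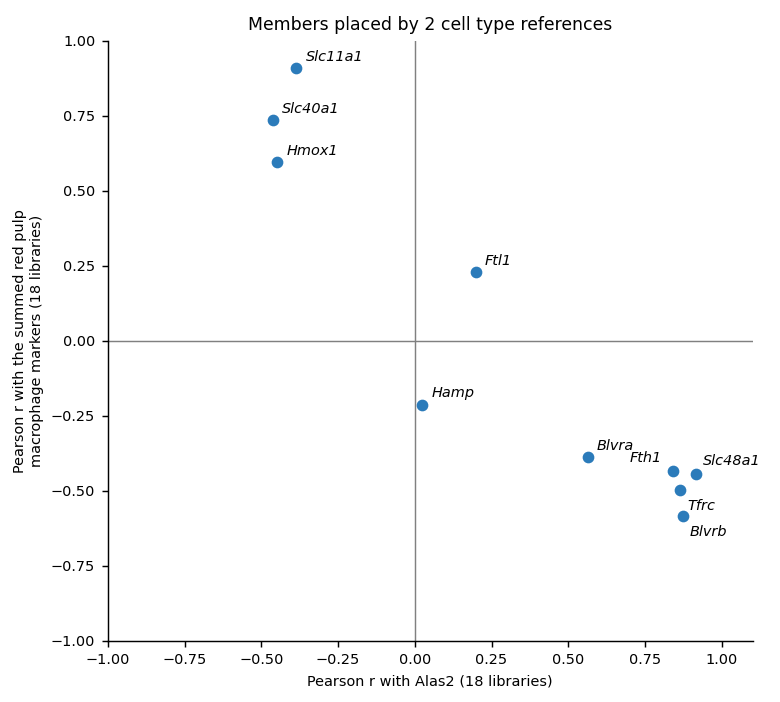
Pearson r of each member with Alas2 (horizontal axis) and with the summed red pulp macrophage markers (vertical axis) over the same 18 libraries. Slc11a1, Slc40a1 and Hmox1 sit at the upper left and Slc48a1, Blvrb, Tfrc, Fth1 and Blvra at the lower right, with Ftl1 and Hamp near the centre. The 2 references are themselves opposed (r = -0.59).

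The genes whose pattern over the 18 libraries was most like that of each member were sought among 9362 tested genes with a mean of at least 5 RPKM, by Pearson r. They were Prdx2 and Urod for Blvrb (0.98 for both), Slc25a39 and Fam210b for Slc48a1 (0.96 and 0.95), and Cep76 and Pip5k1b for Tfrc (0.99 for both). For Fth1 they were Sec14l2 and Rmdn3 (0.97 and 0.95), and for Blvra Gins2 and Spdl1 (0.90 and 0.89). Urod is an enzyme of heme synthesis and Prdx2 an abundant red cell peroxidase. For Slc11a1 they were Fcna and Vcam1 (0.92 and 0.88), for Slc40a1 Slc45a3 and Mrc1 (0.90 and 0.88) and for Hmox1 Cyp27a1 and Zfp219 (0.91 and 0.86). Vcam1 and Mrc1 are macrophage markers of the list above. For Ftl1 they were Mcrip2 and Itga5 (0.80 and 0.72), and for Hamp Mup3 and Fabp1 (0.74 for both), genes known from liver.

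Diabetes was tested by STZ against Con. Slc11a1 was higher in all 3 STZ libraries than in any Con library, and Slc40a1 averaged 80.2 ± 6.41 RPKM in STZ against 66.7 ± 12.6 in Con (SD, n = 3). Hamp was at 0, 0.28 and 0 in STZ. None of the 10 members passed the adjusted threshold, against 0.163% of all genes (21 of 12905). Unadjusted, 2 members were under 0.05, against 11.1% of all genes. These were Slc11a1, with a log2 fold change of 0.39 (95% interval 0.01 to 0.77, limma, adjusted p = 0.44), and Hamp, with -1.89 (95% interval -3.41 to -0.38, limma, adjusted p = 0.30). Slc11a1 was the 1 member that was higher without overlap, which held for 5.77% of all genes. The macrophage marker sum was also higher in all STZ libraries, and its part was not tested. The median log2 fold change of the members was 0.18, against -0.01 over all genes.

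Hamp depended on single libraries. Without Con library 1, where it was at 0, its log2 fold change was -2.90 and passed (limma, adjusted p = 0.023), and without Con library 2 it was -1.26 (adjusted p = 0.76). The other intervals were narrow for ferritin and wide for Tfrc. Fth1 had a log2 fold change of 0.13 (95% interval -0.17 to 0.43), Ftl1 0.13 (-0.09 to 0.35) and Tfrc 0.23 (-0.73 to 1.20).

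AOS alone was tested by A10 against Con. Tfrc averaged 81.5 ± 10.8 RPKM in A10 against 134.7 ± 40.0 in Con and Slc48a1 61.8 ± 6.31 against 73.4 ± 8.97 (SD, n = 3). Both were lower in every A10 library than in any Con library, as were 4.81% of all genes. Alas2 averaged 438.5 ± 97.6 RPKM in A10 against 642.4 ± 201 in Con and overlapped. None of the members passed the adjusted threshold, against 0.00775% of all genes (1 of 12905), and none had an unadjusted p under 0.05, against 5.25%. The log2 fold change of Tfrc was -0.69 (95% interval -1.65 to 0.28, limma, adjusted p = 0.99) and that of Slc48a1 -0.24 (-0.62 to 0.13). With Alas2 as a covariate that of Tfrc was -0.26 (unadjusted p = 0.32). The median of the members was -0.13, against 0.05 over all genes.

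AOS in diabetic animals was tested by STZ-A10 against STZ. Hamp was higher in all 3 STZ-A10 libraries (0.58 to 2.49 RPKM) than in STZ (0 to 0.28), as were 3.29% of all genes, though near the bottom of the scale. None of the members passed, against 0.00775% of all genes, and none had an unadjusted p under 0.05, against 2.93%. Hamp had a log2 fold change of 1.18 (95% interval -0.33 to 2.70, limma, adjusted p = 1.0). Blvrb, at -0.43 (-1.05 to 0.19), and Tfrc, at -0.51 (-1.47 to 0.45), were the next in size. Without STZ library 1, the library with the least Alas2, those of Blvrb and Tfrc were -0.70 (unadjusted p = 0.033) and -0.98 (unadjusted p = 0.043), and neither passed after adjustment.

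The effect of AOS was compared between diabetic and other animals by the interaction of STZ and AOS. None of the members passed it, as none of all genes did (0%), and none had an unadjusted p under 0.05, against 2.86% of all genes. The largest value was that of Hamp, 1.93 (95% interval -0.22 to 4.07, limma, adjusted p = 1.0).

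The transplant from AOS-treated donors was tested by A10-FMT against STZ. Slc40a1 averaged 53.1 ± 0.464 RPKM in A10-FMT against 80.2 ± 6.41 in STZ, Slc11a1 13.1 ± 1.37 against 17.7 ± 1.36 and Hmox1 183.5 ± 59.6 against 249.5 ± 18.5 (SD, n = 3). Slc40a1 and Slc11a1 were lower in every A10-FMT library than in any STZ library, as were 12.1% of all genes. None passed after adjustment, against 0.00775% of all genes, while an unadjusted p under 0.05 was met by 3, against 17.2%. Slc40a1 had a log2 fold change of -0.58 (95% interval -0.88 to -0.28, limma, unadjusted p = 0.00086, adjusted p = 0.14). Hmox1 had -0.49 (-0.95 to -0.04, limma, adjusted p = 0.27) and Slc11a1 -0.41 (-0.80 to -0.03, adjusted p = 0.27).

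The whole distribution was shifted in that comparison, with a median of -0.15 over all genes. With libraries centred on their medians Slc40a1 was at -0.41 (unadjusted p = 0.0064), Hmox1 at -0.32 (0.088) and Slc11a1 at -0.24 (0.21). The value of Slc40a1 was nearly the same without A10-FMT library 3 (-0.59), while that of Hmox1 was -0.21 without it. The macrophage marker sum was lower in every A10-FMT library than in any STZ library, and its part was not tested. The members that followed Alas2 leaned the other way, with Tfrc at 0.67 (95% interval -0.30 to 1.63) and Blvrb at 0.51 (-0.11 to 1.13), and with Alas2 as a covariate these were 0.02 and 0.08.

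The transplant from control donors was tested by Con-FMT against STZ, which shares the STZ libraries with the comparison before. Slc40a1 averaged 61.1 ± 10.1 RPKM in Con-FMT (SD, n = 3) and was lower in every library than in STZ, as were 6.22% of all genes. None of the members passed, against 0.00775% of all genes, while an unadjusted p under 0.05 was met by 1, against 5.24%. This was Slc40a1, with a log2 fold change of -0.40 (95% interval -0.70 to -0.10, limma, unadjusted p = 0.013, adjusted p = 0.92). For Hmox1 the difference was -0.04 (-0.50 to 0.42) and for Tfrc -0.33 (-1.29 to 0.63).

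The donors were compared by A10-FMT against Con-FMT. Tfrc averaged 282.7 ± 189 RPKM with AOS donors against 122.5 ± 11.1 with control donors, and Blvrb 719.2 ± 247 against 448.7 ± 8.89 (SD, n = 3). Both were higher in every A10-FMT library, as were 5.35% of all genes. None of the members passed after adjustment, as none of all genes did (0%), and 2 had an unadjusted p under 0.05, against 23.6%. Tfrc had a log2 fold change of 1.00 (95% interval 0.04 to 1.96, limma, adjusted p = 0.21) and Blvrb 0.62 (0.00 to 1.24, limma, adjusted p = 0.21), against a median of -0.17 over all genes.

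Both values turned on A10-FMT library 3. Without it Tfrc was at 0.49 (unadjusted p = 0.27) and Blvrb at 0.37 (unadjusted p = 0.24). Without A10-FMT library 2, the one rich in pancreatic transcripts, Tfrc was at 1.40 and passed (limma, adjusted p = 0.047), as did Hmox1 at -0.67 (limma, adjusted p = 0.044). In that fit 2625 of all genes passed, against 0 in the main fit. Alas2 itself had a log2 fold change of 0.65 (95% interval -0.37 to 1.67), and with Alas2 as a covariate Tfrc was at 0.47 (unadjusted p = 0.086) and Blvrb at 0.27 (unadjusted p = 0.074).

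**Figure D5:**
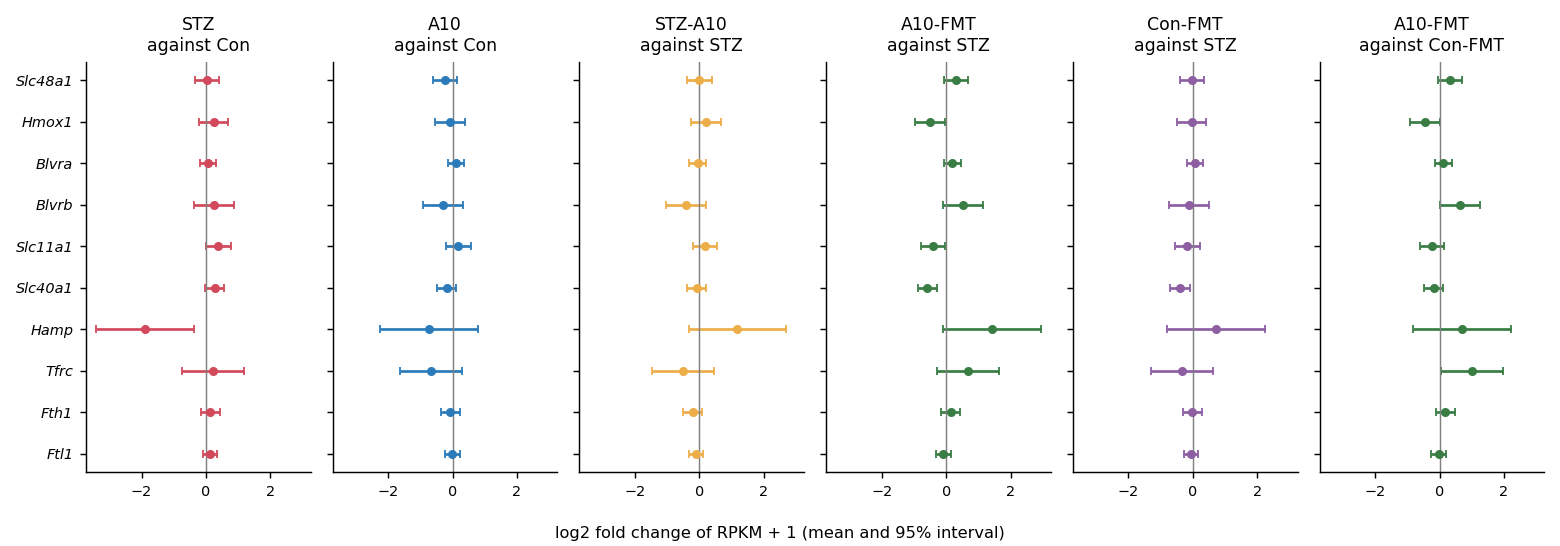
Log2 fold change of RPKM + 1 (horizontal axis) with its 95% interval for the 10 members (rows) in 6 comparisons (panels). Ftl1 and Blvra have the narrowest intervals and Hamp and Tfrc the widest. 8 of the intervals leave out 0, among them Slc40a1 in both transplant groups against STZ.

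The members sit within a larger set of iron and heme genes, of which 66 were listed by role. All 66 were in the table and 57 passed the filter on low values. None of the 57 passed the adjusted threshold in any of the 6 comparisons or the interaction, against at most 0.163% of all genes. In STZ against Con 4 were higher and 4 lower at an unadjusted p under 0.05, which is 14% of the list against 11.1% of all genes. The smallest p was that of Cd163, the hemoglobin scavenger receptor (log2 fold change 0.92, limma, adjusted p = 0.086). Erfe, the erythroid hormone that lowers hepcidin, was at 2.52 (limma, adjusted p = 0.089), and Hpx, the plasma heme carrier made in liver, at -1.96 (adjusted p = 0.16). The other lower genes were Ltf, Lcn2 and Hp, named after their values were seen. Con libraries spread widely, with Hpx at 6.30 ± 7.31 and Lcn2 at 418 ± 475 RPKM (SD, n = 3). Con libraries 1 and 2 were high for neutrophil genes and 2 and 3 for liver genes, and the part of these was not tested.

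In A10 against Con 1 was higher and 5 lower at an unadjusted p under 0.05 (10.5% of the list against 5.25% of all genes), and the 3 smallest p were those of Hp at -1.71, Lcn2 at -2.15 and Ltf at -2.14 (log2 fold changes). Lcn2 and Ltf are granule proteins of neutrophils, and the neutrophil marker sum was highest in Con libraries 1 and 2. In STZ-A10 against STZ none had an unadjusted p under 0.05 (2.93% of all genes did), and the leading genes included Tfr2 at -0.53 and Slc39a14 at 0.35. In the interaction 1 was higher at an unadjusted p under 0.05, Hp at 1.85 (1.75% of the list against 2.86% of all genes), and Lcn2 was at 1.88 without reaching it.

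In A10-FMT against STZ 1 was higher and 9 lower, 17.5% of the list against 17.2% of all genes, of which 252 were higher and 1964 lower. The count and its lean were thus close to the background. The smallest p were those of Lrp1, the receptor for heme bound to hemopexin (-0.70, limma, adjusted p = 0.14), Hpx at 2.47 (adjusted p = 0.14) and Cp, the ferroxidase of plasma, at -0.53 (adjusted p = 0.23). In Con-FMT against STZ 3 were lower and none higher (5.26% against 5.24% of all genes), Cd163 at -0.87, Erfe at -1.68 and Spic, the transcription factor of red pulp macrophages, at -0.29. In A10-FMT against Con-FMT 4 were higher and 3 lower, 12.3% of the list against 23.6% of all genes, and the smallest p were those of Hpx at 2.24, Erfe at 1.89 and Keap1 at -0.29. Liver marker genes summed to 127 to 415 RPKM in A10-FMT, against 5.79 to 8.20 in STZ and 9.63 to 55.3 in Con-FMT, and their part in the values of Hpx was not tested.

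The larger list was also divided by its relation to Alas2. Of 56 genes other than Alas2, 20 (35.7%) rose with Alas2 and 18 (32.1%) fell, against the 9.56% and 48.1% of all genes given above. The falling count depended on the fit. With a coefficient per group 18 rose and 12 fell, and with Hba-a1 as the reference and that coefficient 18 rose and 6 fell. Heme synthesis was on the rising side, with 8 of 9 genes, among them Fech, which inserts the iron (slope 0.93 ± 0.06, limma, adjusted p = 3.6e-09), and Cpox (0.83 ± 0.12). The remaining gene, Alas1, which serves heme synthesis in other cells, fell (-0.26 ± 0.09, limma, adjusted p = 0.021). Of 8 genes of mitochondrial iron and iron-sulfur clusters 5 rose, led by the iron importer Slc25a37 (0.89 ± 0.06, limma, adjusted p = 4.2e-09), and 1 fell, its relative Slc25a28.

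Of 11 genes of iron uptake 4 rose and 4 fell. Of 8 genes of heme and hemoglobin clearance 1 rose (12.5%), the exporter Abcg2 (0.79 ± 0.13), and 4 fell (50%), near the share of all genes, among them Hmox2, the constitutive heme oxygenase (-0.28 ± 0.05, limma, adjusted p = 0.00019). Of 8 genes of export and systemic control none rose and 4 fell (50%), again near the 48.1% of all genes, among them Cp (-0.32 ± 0.08). In the control of heme breakdown Mafk rose and Spic and Keap1 fell, in storage Ncoa4, the receptor for ferritin turnover, rose (0.48 ± 0.06) and Pcbp2 fell, and of 3 iron sensors Fbxl5 fell. Alas1, Slc25a28, Hmox2, Mafk, Ncoa4, Pcbp2 and Fbxl5 are named here after their values were seen.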

How the data were processed

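Total RNA of the spleens was DNase treated, enriched with oligo(dT) and sequenced on an Illumina HiSeq instrument, per the study's methods. These name SOAPaligner, whereas the submitters' processing notes list Bowtie 0.12.2 and the mm10 genome. The authors deposited gene values as RPKM, normalized for length and total mapped reads, in 18 columns matched to samples by title. The deposited table holds no read counts, so depth and counting error are unknown and the study's DEGseq test could not be run. Here log2(RPKM + 1) was fitted in R 4.3.3 with limma 3.58.1 (trend) over all 18 libraries, for genes at an RPKM of at least 1 in at least 3 libraries. Fold changes are on that scale and understate changes of low genes. Tests were two-sided, with Benjamini-Hochberg adjustment over all tested genes at 0.05, and permutation p-values of correlations used 100000 permutations. The fit was tested on simulated data. Groups came from the labels. The comparisons were STZ and A10 against Con, STZ-A10, A10-FMT and Con-FMT against STZ, A10-FMT against Con-FMT, and the interaction; several share libraries. Named genes were all members, the 3 smallest p-values per comparison and the 5 largest slopes on Alas2 in the wider list, and the most alike genes; some genes that this rule names are not reported here. Members and lists were chosen with earlier results of these data known. Alternatives covered the pseudocount, filter, scaling, weights, covariates, reference and samples. Globin read shares were estimated from RPKM times gene length, with lengths matched for 95.4% of the table's lines.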

Additional observations from a re-analysis of the deposited data

How the results depend on the processing

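With no counts deposited, the precision of low genes such as Hamp cannot be separated from their spread, and 3 libraries a group left wide intervals for Tfrc and Blvrb. No member passed in any comparison, and this held under every alternative but array weights and the omission of single libraries. With array weights (estimated gene by gene, chosen after seeing the data, since the default estimate did not converge) 7 members passed in STZ against Con, 1 in A10 against Con, 2 in A10-FMT against STZ, 2 in Con-FMT against STZ and 6 in A10-FMT against Con-FMT, and none in the other 2 tests. Of the 12905 genes tested, the number called rose with those weights from 21 to 3716 in STZ against Con. It rose from 0 to 6068 in A10-FMT against Con-FMT. From 1 each it rose to 1327 in A10 against Con, 2145 in A10-FMT against STZ and 2360 in Con-FMT against STZ. The cause was not tested. Leaving out 1 library gave 0 to 1 members in STZ against Con (Hamp without Con replicate 1) and 0 to 2 in A10-FMT against Con-FMT (Tfrc and Hmox1 without A10-FMT replicate 2), and 0 elsewhere. Over all genes such fits called 0 to 234 in STZ against Con. In A10-FMT against Con-FMT they called 0 to 2625, the most without A10-FMT replicate 2. The number of members related to Alas2 was 5, with 4 to 6 over the other alternatives and 4 to 7 with 1 library left out. Of the 57 tested genes of the wider list none passed, but with array weights 17, 15, 8, 9 and 27 did in the same 5 comparisons, beside the raised counts over all genes given above. The fit with replicate number as a block gave 0 members in every comparison and 5 related to Alas2. Same-numbered libraries deviated together in some comparisons only (correlations from -0.385 to 0.571). These values cannot tell whether the numbers pair the libraries, and the labels do not state it. Of 2023 alternative fold changes 68 turned sign, none with an unadjusted p under 0.05. The counts of members were thus unchanged with that block.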
